A study of Mus musculus with 4 samples.

Results

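The Hox cluster genes are the 39 protein-coding genes whose symbol is Hoxa, Hoxb, Hoxc or Hoxd followed by digits in the GENCODE M21 annotation of the mouse genome (mm10). They were chosen by symbol alone, out of 21755 protein-coding genes on chromosomes 1 to 19 and X, and no measured value entered the rule. Earlier results of these data were, however, known when the set was chosen. They lie in 4 clusters. Hoxa has 11 genes, Hoxb has 10, Hoxc has 9 and Hoxd has 9.

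The study mapped the histone demethylase PHF2 and the mark H3K9me2 (histone H3 dimethylated at lysine 9) by chromatin immunoprecipitation and sequencing (ChIP-seq) in neural stem cells of wild-type C57BL/6J mouse embryos at E12.5. The cultures received 20 ng/ml EGF and 10 ng/ml FGF. There were 4 samples, 1 ChIP with a PHF2 antibody (Cell signaling D45A2), 1 ChIP with an H3K9me2 antibody (Abcam ab1220), and 1 input for each. The values came from the 2 deposited lists of ChIP peaks, and the inputs were not analysed here. No group had a replicate, so no comparison between samples was tested. Peak lists hold no read totals, and the sequencing depth behind them is unknown. The labels do not say from which part of the embryonic nervous system the cells came, whether animals were pooled or how long the cells had been in culture. Neither list measures RNA, so neither the cell type nor which Hox genes the cells transcribed could be checked from them.

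Hox proteins are homeodomain transcription factors that give segments of the body axis their identity. The genes of a cluster are switched on in the order in which they lie, the low-numbered genes first and towards the head, the high-numbered genes later and towards the tail. In the nervous system they are used in the hindbrain and spinal cord and are silent in the forebrain and midbrain, where Polycomb complexes hold the clusters under H3K27me3. Their promoters are rich in CpG and poor in repeats. PHF2 has a PHD finger that binds trimethylated lysine 4 of histone H3, the mark of active promoters, and a Jumonji domain that removes methyl groups from H3K9.

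The promoters shown first were picked after their values were seen, all from the Hoxd region or the high-numbered end of Hoxa. They are RefSeq promoters on GRCm38.p6, the assembly called mm10, each running from 250 bases before to 50 bases after a start, 5′ to 3′ on the strand of the gene, with every CpG in capitals. Hoxd13 and Hoxd1 are the outermost genes of the Hoxd cluster, and Hoxa13 is the outermost gene at the high-numbered end of Hoxa. They are shown because no PHF2 peak overlapped their promoters, although these held more CpG than the promoters of Lnpk and Mtx2 that follow.
Hoxd13, chr2:74667975-74668274, plus strand, 37 CpG: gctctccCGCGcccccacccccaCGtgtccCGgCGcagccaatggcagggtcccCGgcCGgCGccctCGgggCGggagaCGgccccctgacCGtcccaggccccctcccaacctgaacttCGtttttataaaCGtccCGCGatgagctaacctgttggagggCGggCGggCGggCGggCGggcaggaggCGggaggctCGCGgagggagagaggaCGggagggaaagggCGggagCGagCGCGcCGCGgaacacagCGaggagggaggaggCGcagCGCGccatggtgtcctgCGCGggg
Hoxd1, chr2:74762730-74763029, plus strand, 29 CpG: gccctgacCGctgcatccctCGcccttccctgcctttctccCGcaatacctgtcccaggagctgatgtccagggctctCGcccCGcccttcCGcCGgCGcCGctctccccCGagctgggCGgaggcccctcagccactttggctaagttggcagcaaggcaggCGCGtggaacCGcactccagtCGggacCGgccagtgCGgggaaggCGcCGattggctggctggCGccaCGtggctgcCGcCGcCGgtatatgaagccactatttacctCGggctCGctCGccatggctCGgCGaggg
Hoxa13, chr6:52260831-52261130, minus strand, 45 CpG: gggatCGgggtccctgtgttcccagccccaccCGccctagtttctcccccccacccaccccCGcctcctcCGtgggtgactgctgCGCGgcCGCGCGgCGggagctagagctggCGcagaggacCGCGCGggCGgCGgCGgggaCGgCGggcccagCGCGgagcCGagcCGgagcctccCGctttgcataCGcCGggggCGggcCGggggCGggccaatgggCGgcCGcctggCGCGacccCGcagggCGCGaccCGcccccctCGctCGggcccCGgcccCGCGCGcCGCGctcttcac
Hoxd4 is shown for the range among Hox promoters, since it shared the lowest CpG number with Hoxa9 and 1 of the Hoxd11 entries.
Hoxd4, chr2:74721728-74722027, plus strand, 4 CpG: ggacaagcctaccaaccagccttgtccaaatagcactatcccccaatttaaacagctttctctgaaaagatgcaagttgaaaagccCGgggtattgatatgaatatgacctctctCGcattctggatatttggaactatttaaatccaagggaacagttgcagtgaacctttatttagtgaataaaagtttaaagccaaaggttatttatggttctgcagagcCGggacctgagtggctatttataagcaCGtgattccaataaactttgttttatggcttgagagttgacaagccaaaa
Lnpk and Mtx2 flank Hoxd and its neighbour Evx2 on the left and right along chromosome 2, and are shown because a PHF2 peak covered each of these 2 promoters whole.
Lnpk, chr2:74578899-74579198, minus strand, 25 CpG: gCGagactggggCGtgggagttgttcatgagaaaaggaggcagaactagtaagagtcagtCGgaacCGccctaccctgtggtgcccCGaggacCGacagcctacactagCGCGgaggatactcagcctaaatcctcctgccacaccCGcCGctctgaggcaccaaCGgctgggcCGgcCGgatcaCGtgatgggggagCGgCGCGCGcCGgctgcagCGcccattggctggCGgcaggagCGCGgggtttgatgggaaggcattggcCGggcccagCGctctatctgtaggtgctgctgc
Mtx2, chr2:74825562-74825861, plus strand, 19 CpG: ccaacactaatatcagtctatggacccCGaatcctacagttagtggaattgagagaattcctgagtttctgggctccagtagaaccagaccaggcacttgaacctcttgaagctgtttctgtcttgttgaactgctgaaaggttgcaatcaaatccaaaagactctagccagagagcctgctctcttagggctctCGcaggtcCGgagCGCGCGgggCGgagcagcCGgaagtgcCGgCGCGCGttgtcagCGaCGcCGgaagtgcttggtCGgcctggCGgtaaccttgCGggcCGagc

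PHF2 peaks were nearly absent from Hox promoters. A peak overlapped the promoter of 1 of the 39 Hox genes (2.56%, 95% Wilson interval 0.454 to 13.2%), against 6374 of the 21755 protein-coding genes (29.3%). A promoter is here every position within 1000 bp of an annotated start of a gene. The 38 genes without a peak included every Hoxb, Hoxc and Hoxd gene. The intervals cover counting error only, and neighbouring Hox genes are not independent observations, so that the interval is narrower than the true uncertainty. No H3K9me2 region overlapped any Hox promoter, 0 of 39 (Wilson interval up to 8.97%), against 760 of 21755 genes (3.49%). For H3K9me2 the 2 shares could therefore not be told apart from 39 genes.

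The same was counted over windows in place of genes, because genes with many starts have more chances of a peak. The starts of the Hox genes gave 56 separate windows, of which 1 held a PHF2 peak (1.79%, Wilson interval 0.316 to 9.45%), against 5679 of 42266 windows of all genes (13.4%). An H3K9me2 region was found in 0 of the 56, against 770 of 42266 (1.82%). Hox windows were dense, at 113.9 windows per Mb of cluster, against 16.5 per Mb in the genome.

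CpG content set the Hox genes among the promoters that PHF2 most often occupied. CpG observed/expected is the number of CpG in a sequence relative to the number its C and G content would give by chance. Its median was 0.591 over the Hox promoters, with a range of 0.295 to 0.894, against a median of 0.363 over all protein-coding genes. Their median GC content was 55.4%, against 48.9%. All genes were put in 10 equal classes of CpG observed/expected, from class 1 (lowest) to class 10 (highest). Among genes other than Hox, the share with a PHF2 peak was 0% in class 1, 14.4% in class 4, 28.6% in class 5 and 64.0% in class 10 (Wilson interval 62.0 to 66.0%).

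Of the Hox genes, 14 were in class 10, 10 in class 9, 5 in class 8, 3 in class 7, 4 in class 6, 2 in class 5 and 1 in class 4. None of the 14 in class 10 had a peak, and 1 of the 10 in class 9 had one, against 51.3% of other genes of class 9 (Wilson interval 49.2 to 53.4%). In classes 9 and 10 together the count was 1 of 24 Hox genes, where 57.4% of all genes of these classes had a peak. In classes 6 to 10 it was 1 of 36, where 49.3% of all genes had one. Averaged over the Hox genes, each given the share of its own class, genes of like CpG content had a peak in 51.6% of cases, which lies above the whole Wilson interval of the Hox share. Genes of like CpG content had an H3K9me2 region in 2.00% of cases by the same reckoning, below the 3.49% of all genes.

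**Figure D1:**
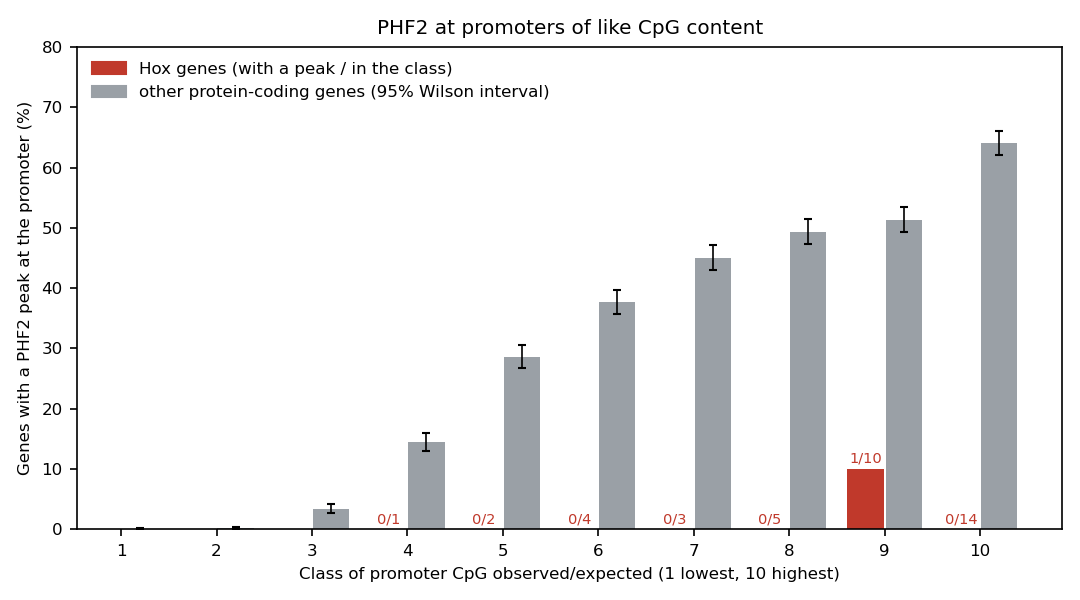
Share of genes with a PHF2 peak at the promoter (%, y axis) in 10 equal classes of promoter CpG observed/expected (x axis), for Hox genes (red, with the number carrying a peak over the number in the class) and other protein-coding genes (grey, with 95% Wilson intervals). In class 10, 0 of 14 Hox genes had a peak, against 64.0% of other genes, and the one red bar is the 1 of 10 in class 9.

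Within the clusters, CpG content differed from gene to gene, and the Hox genes without a peak covered its whole range. In Hoxa, the gene highest in CpG observed/expected was Hoxa5 at 0.886 and the lowest Hoxa3 at 0.376, with a cluster median of 0.592. In Hoxb the highest was Hoxb5 at 0.680 and the lowest Hoxb2 at 0.321, with a median of 0.498. In Hoxc the highest was Hoxc13 at 0.694 and the lowest Hoxc4 at 0.295, with a median of 0.543. Hoxd was the richest in CpG, with a median of 0.705, the highest at Hoxd8 with 0.894 and the lowest at Hoxd4 with 0.457.

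By their medians, promoters of the genes used towards the tail were the richer in CpG, but the values overlapped widely. Groups are numbered 1 to 13 by position, and genes of 1 number in the 4 clusters descend from 1 ancestral gene. The genes of groups 9 to 13, which pattern the lower trunk, limbs and genital tubercle, had a median CpG observed/expected of 0.669 (16 genes). Those of groups 4 to 8, of the neck and upper trunk, had 0.543 (15 genes), and those of groups 1 to 3, of the hindbrain, had 0.480 (8 genes). In the same order the ranges were 0.389 to 0.855, 0.295 to 0.894 and 0.321 to 0.705. Hoxa13 (0.855) and Hoxd13 (0.840), both needed for digit formation, carried no peak.

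**Figure D2:**
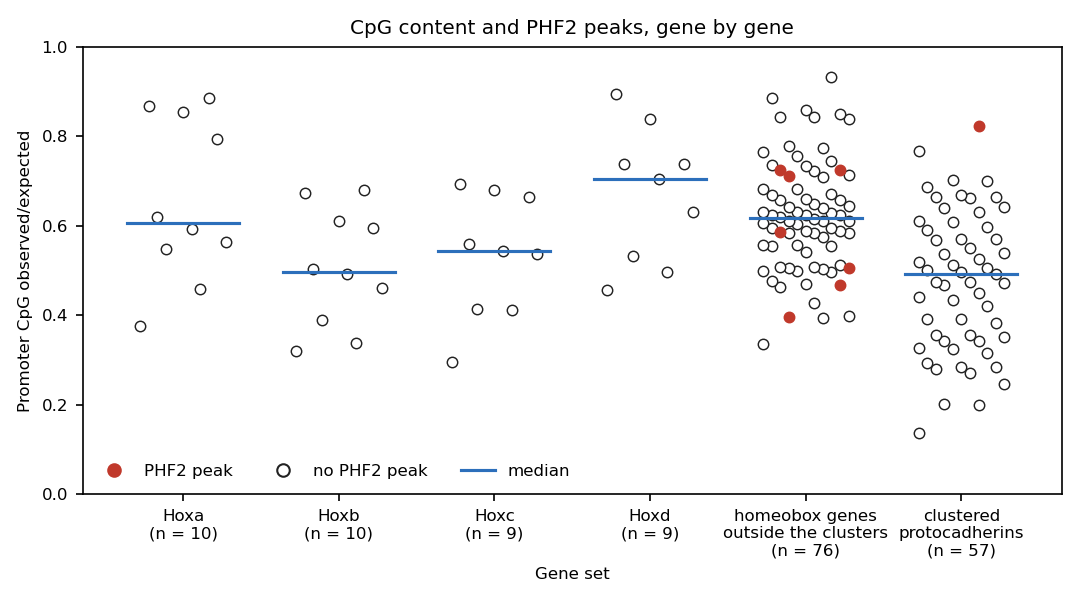
Promoter CpG observed/expected (y axis) of the 38 Hox genes without a PHF2 peak, by cluster, in 76 homeobox genes outside the clusters and in 57 clustered protocadherin genes (x axis), with filled red points for genes with a PHF2 peak and blue lines for the medians of the genes drawn. Among the Hox genes, 3 of Hoxa and, in Hoxd, Hoxd8 and Hoxd13 lie above 0.8 with no peak. The Hox gene with a peak is not drawn, so that no Hox point can be red, whereas the other sets are drawn whole.

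Per unit of length the clusters held about as many PHF2 peaks as the genome, although they hold more starts. The 4 clusters, measured from the first to the last base of their Hox genes, cover 491.8 kb. Hoxb spans chr11:96194316-96368256, Hoxc chr15:102921103-103036852 and Hoxd chr2:74668310-74765142. They held 1 PHF2 peak, 2.03 per Mb, against 2.34 per Mb over chromosomes 1 to 19 and X. With 100 kb added at each end they held 3 peaks, 2.32 per Mb. A count of 1 or 3 peaks cannot show a difference in density.

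Of these peaks, 2 lay at genes that flank Hoxd and Evx2. The left one, at chr2:74578094-74579372 (1279 bp), covered the start of Lnpk, which shapes the junctions of the endoplasmic reticulum, and that of the antisense lncRNA 4930445N08Rik, 88.9 kb from the cluster. The right one, at chr2:74825391-74826548 (1158 bp), covered the start of Mtx2, which codes for a mitochondrial outer membrane protein, 60.3 kb from the cluster. In the deposited list they had scores of 195.46 and 165.54, both below the median of 229.09 over all 5992 peaks, 40.1% of which scored lower than the Lnpk peak and 29.6% lower than the Mtx2 peak. The score is the authors' value for a peak, it ranks peaks within this list only, and its scale is not stated in the labels or the file headers. By CpG observed/expected over all their starts, Lnpk (0.371, class 6) was poorer in CpG than 36 of the 39 Hox genes, and Mtx2 (0.579, class 9) was close to the Hox median. The single promoters printed above, which the peaks covered, were richer, at 0.782 for Lnpk and 0.801 for Mtx2. They held 25 and 19 CpG, against a median of 14.5 in the 24 Hox promoters of the RefSeq set, most of them of Hoxa and Hoxd.

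**Figure D3:**
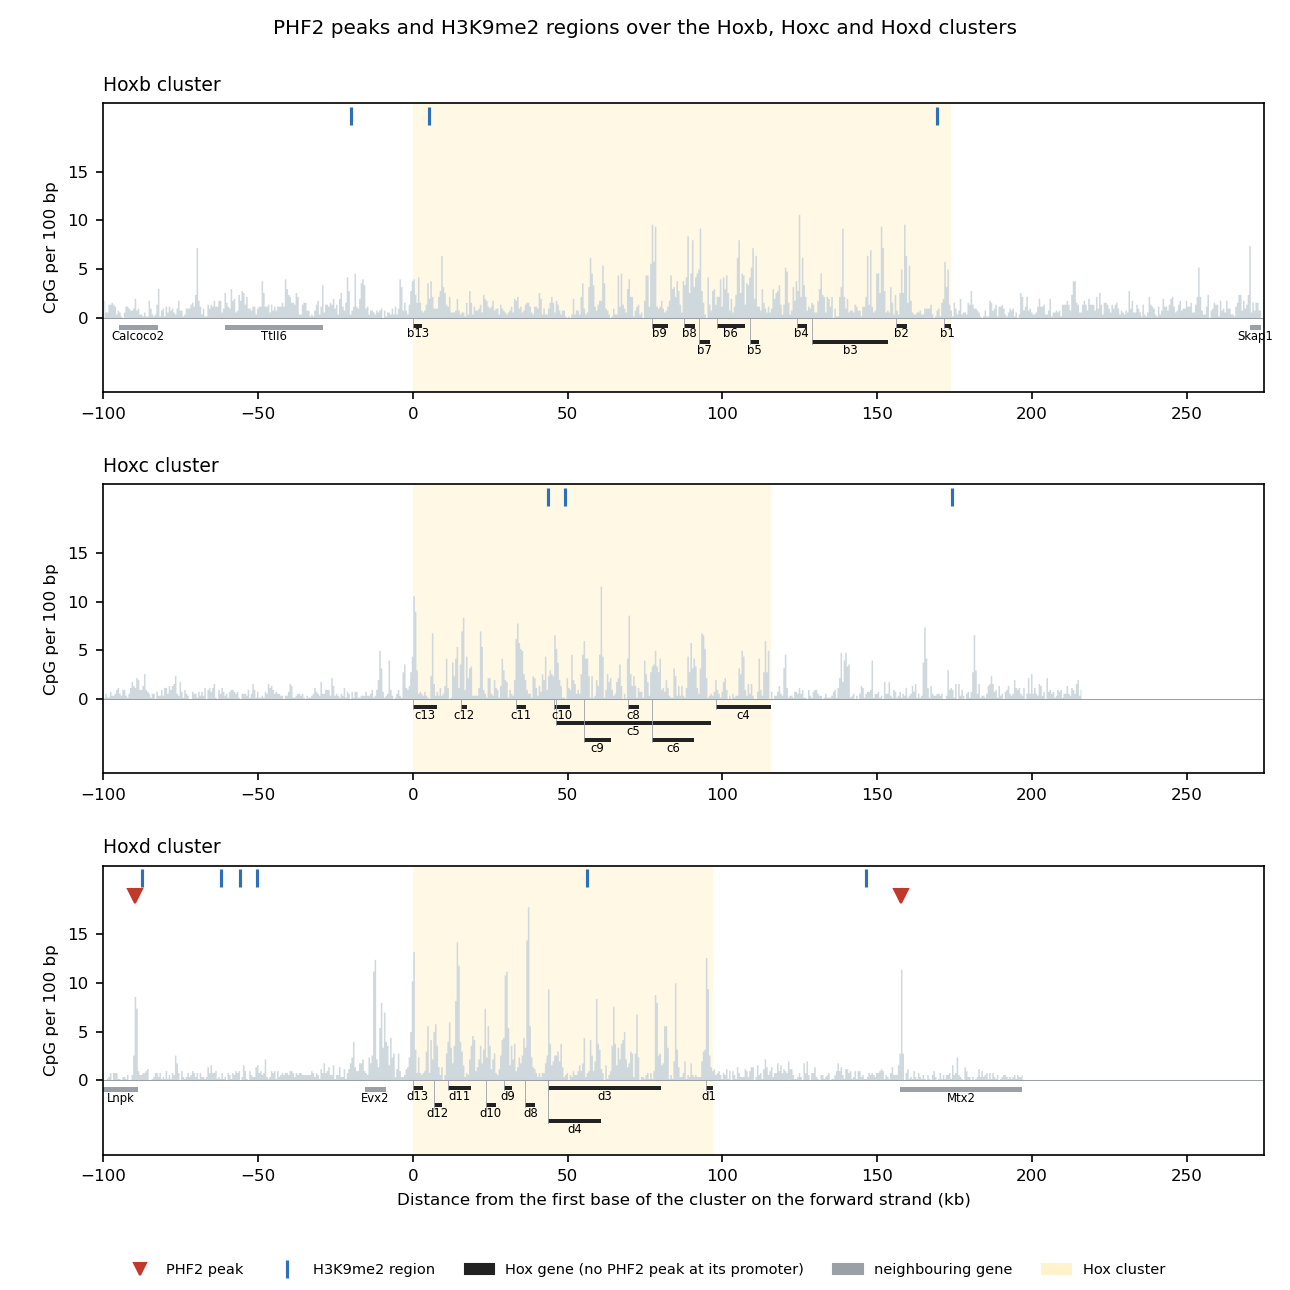
Maps of the Hoxb, Hoxc and Hoxd clusters (shaded) with 100 kb on either side. The x axis is the distance in kb from the first base of the cluster on the forward strand. Grey columns give CpG per 100 bp in bins of 500 bp (y axis), red triangles PHF2 peaks, blue ticks H3K9me2 regions, and bars below the axis genes, each Hox gene with a line at its start. The 2 triangles are at Lnpk and Mtx2, and the many columns of high CpG inside the shading carry none.

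Beyond these margins the next PHF2 peaks were far away for Hoxa, Hoxb and Hoxc. Along the chromosome, Hoxa had 683.7 kb to the peak at Cbx3 and Hnrnpa2b1, a heterochromatin protein and an RNA-binding protein, and 1026 kb to that at Creb5 on the other side. Hoxb had 128.4 kb to Ube2z, a ubiquitin-conjugating enzyme, and 461 kb to Nfe2l1, a stress-response factor. Hoxc had 295.2 kb to Atf7 and Gm28047, and 202.1 kb to Cbx5 and Hnrnpa1. The gap between neighbouring PHF2 peaks over Hoxb was 763.4 kb (longer than 86.2% of the 5972 gaps), over Hoxc 613.1 kb (82.8%) and over Hoxd 246.0 kb (63.9%), against a median gap of 150.3 kb. By length alone these gaps were long but not rare.

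Counted in CpG-rich genes, the stretches without PHF2 around the clusters were among the longer ones. Genes of CpG classes 6 to 10 were followed along each chromosome, leaving out genes of lower classes, and a run was a row of such genes with no peak at the promoter of any of them. There were 2253 runs with a median of 2 genes. The run from Atp5g1 to Cbx1 had 12 genes, 8 of them Hoxb genes, and 14 runs in the genome were longer. The run from Evx2 to Hoxd1 had 11 genes, 9 of them Hoxd genes, with 20 longer. The run from Atp5g2 to Hoxc6 had 9 genes, 8 of them Hoxc genes, with 39 longer. These runs were built from the promoter calls given above, and most of their genes are neighbouring Hox genes. They are thus no separate evidence.

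CpG-rich sequence in the clusters was also counted without regard to genes. The clusters held 52 stretches of 500 bp or more with a GC content of at least 55% and CpG observed/expected of at least 0.65. PHF2 overlapped 1 of them (1.92%, Wilson interval 0.340 to 10.1%), against 5479 of 13722 stretches outside the clusters (39.9%). At protein-coding starts the count was 1 of 25, against 50.9% outside. Away from protein-coding starts it was 0 of 27, against 10.4%, a share that lies within the Wilson interval of that count. Of stretches of 1000 bp or more, 1 of 12 carried a peak, against 59.3%. An H3K9me2 region overlapped 0 of the 52 stretches and 1 of the 13722.

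The whole clusters differed in composition from the genome around them. CpG stood at 2.99 per 100 bp in Hoxa, 2.09 in Hoxb, 2.15 in Hoxc and 2.81 in Hoxd, against 0.834 in the genome and 0.904 to 1.24 in the flanks of 100 kb. Bases masked as repeats made up 13.4% of Hoxa, 24.6% of Hoxb, 15.9% of Hoxc and 14.4% of Hoxd, against 34.3% of the genome. Whether repeat content or the share of uniquely placed reads had a part in the counts above was not tested.

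Most Hox genes were far from PHF2. The distance from a Hox start to the nearest PHF2 peak had a median of 120.2 kb, against 47.1 kb over all protein-coding genes and 0 kb over other genes of CpG classes 9 and 10. It was over 50 kb for 33 of the 39 and over 100 kb for 24 of the 39, where 37.4% of all genes were that far. In Hoxa it was highest at Hoxa13, at 101.8 kb. In Hoxb it ran from 128.4 kb at Hoxb13 to 299.9 kb at Hoxb1. In Hoxc it ran from 204.6 kb at Hoxc4 to 302.2 kb at Hoxc12. In Hoxd it ran from 62.4 kb at Hoxd1 to 120.2 kb at Hoxd8, in the middle of the cluster, with 88.9 kb at Hoxd13. Since genes of a cluster share their neighbours, these distances are 4 sets of linked values.

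**Figure D4:**
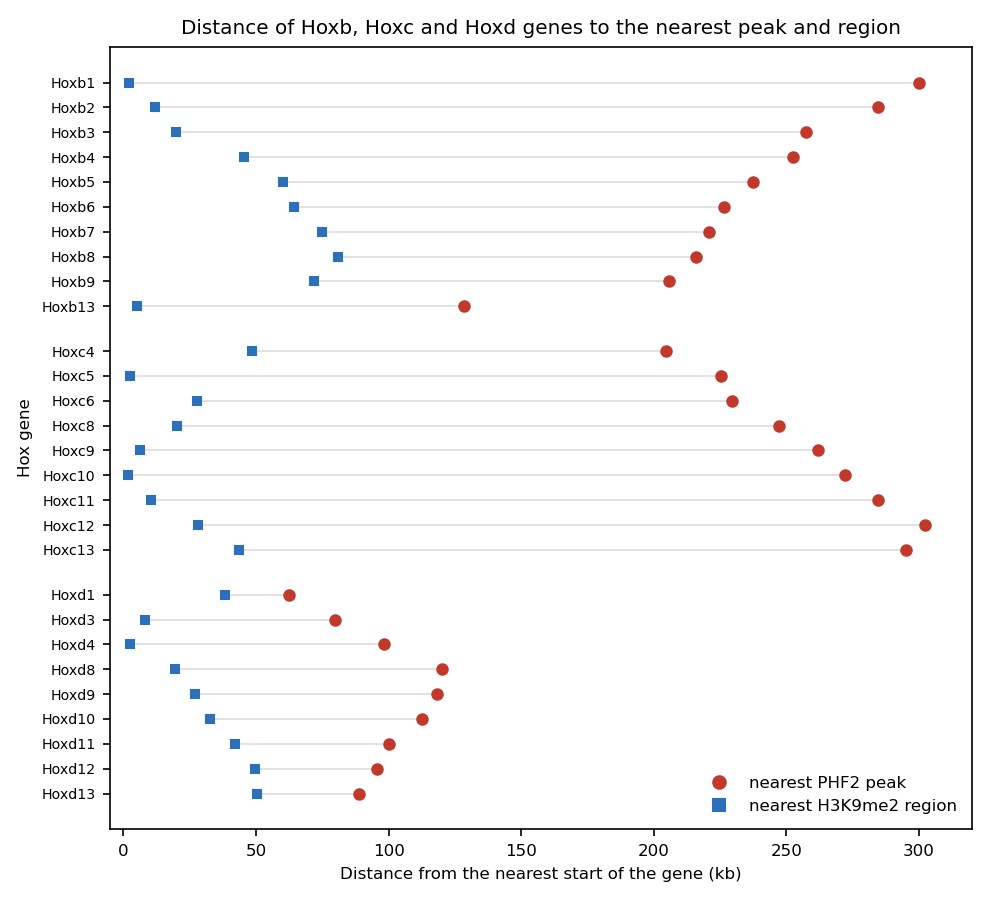
Distance in kb (x axis) from the nearest start of each gene of Hoxb, Hoxc and Hoxd (y axis) to the nearest PHF2 peak (red circles) and the nearest H3K9me2 region (blue squares). Hoxb and Hoxc genes lie 128.4 to 302.2 kb from PHF2 and Hoxd genes 62.4 to 120.2 kb, and every gene has an H3K9me2 region within 80.9 kb.

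H3K9me2 regions in the clusters stood at about the density of the genome, and none overlapped a Hox promoter. That 0 of 39 could not be told apart from the 3.49% of all genes. Counts of 7 and 16 regions are too few to show a small difference in density. The clusters held 7 regions, 14.2 per Mb, and with their flanks 16, 12.4 per Mb, against 14.1 per Mb over chromosomes 1 to 19 and X. The distance from a Hox start to the nearest region had a median of 26.9 kb, against 31.4 kb over all genes. It ran from 1.12 kb at Hoxa4 to 80.9 kb at Hoxb8, with 8 genes over 50 kb away and 0 over 100 kb, where 17.7% of all genes were that far. With windows of 2 kb on either side of a start, 3 of 39 Hox genes had a region, Hoxa4, Hoxb1 and Hoxc10 (7.69%), against 6.93% of all genes. With 5 kb, 6 had one (15.4%), the same genes and Hoxa3, Hoxc5 and Hoxd4, against 15.3%. At these distances the Hox shares were close to those of all genes, but 3 and 6 linked genes can show neither a difference nor equality.

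The regions in and around the clusters were short. At 73 bp, the shortest length in the list, were 12 of the 16 regions (75.0%), against 55.6% of all 36111 regions. The longest of the 16, at 134 bp, lay in an intron of Hoxd3 and Hoxd4, 2.34 kb from the nearest Hoxd4 start, at chr2:74724601-74724734. Hoxd4 patterns the boundary of skull and neck. One of 90 bp lay between Hoxb2 and Hoxb1, 2.00 kb from the start of Hoxb1, a gene of rhombomere 4. Both are shown because they were the longest regions inside the clusters, plus strand, with CpG in capitals as above.
Hoxd4 intron, chr2:74724601-74724734, plus strand: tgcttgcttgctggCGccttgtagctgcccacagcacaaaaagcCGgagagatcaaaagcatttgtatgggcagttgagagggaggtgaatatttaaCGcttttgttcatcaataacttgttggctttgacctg
Hoxb1 upstream, chr11:96363665-96363754, plus strand: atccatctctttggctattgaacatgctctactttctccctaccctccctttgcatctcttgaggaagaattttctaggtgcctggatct
The Hoxd4 region held 3 CpG and the Hoxb1 region 0.

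The other 5 regions inside the clusters were spread over 3 clusters. One of 82 bp, at chr6:52180549-52180630, lay in an exon of Hoxa3 and of 5730596B20Rik. One at chr6:52192877-52192949 lay 1.12 kb from the Hoxa4 start, in an exon of the antisense lncRNA Hoxaas3. One at chr11:96199582-96199654 lay 5.27 kb from the start of Hoxb13, near the small RNA genes Gm27898 and Gm27605. Hoxc held 2, at chr15:102964792-102964864, 1.93 kb from the start of Hoxc10, and at chr15:102970267-102970339, in an intron of Hoxc10 and Hoxc5. Of the 16 regions in clusters and flanks, 8 held no base masked as a repeat, against 49.1% of all regions.

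None of the 16 H3K9me2 regions in the clusters and flanks overlapped any of the 3 PHF2 peaks there. The share of all regions that overlap a PHF2 peak was not counted, so nothing follows from this. The 2 marks came closest beside Hoxd, where a region of 73 bp at chr2:74580878-74580950 lay 1505 bp from the Lnpk peak, in an intron of 4930445N08Rik. The region nearest to the Mtx2 peak lay 10563 bp away.

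Genes among the Hox genes and next to them were too few for their shares to be told apart from the background. Of 10 protein-coding genes other than Hox in the clusters and flanks, Lnpk and Mtx2 had a PHF2 peak (2 of 10, against 29.3% of all genes) and 0 had an H3K9me2 region. The homeobox genes Evx1 and Evx2, which specify spinal interneurons and adjoin Hoxa and Hoxd, had none, although Evx1 was in CpG class 9 (0.555) and Evx2 in class 10 (0.657). Of 28 lncRNA genes, 18 of them inside the clusters, 2 had a PHF2 peak, among them 4930445N08Rik, against 9.82% of all lncRNA genes. None of the 28 had an H3K9me2 region within 1000 bp of a start, against 2.52%. Hotair, in the Hoxc cluster, Hottip, beyond Hoxa13, and Haglr, between Hoxd3 and Hoxd1, all lncRNAs studied for their bearing on Hox transcription, had neither. The 7 microRNA genes of the clusters, among them Mir10a, Mir10b and Mir196b, had neither. The shares over all microRNA genes were not counted, so nothing follows from these 7.

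Genes that act on or with Hox genes included many with a PHF2 peak. The TALE homeodomain proteins (Pbx, Meis and Pknox) bind DNA together with Hox proteins. A PHF2 peak was at the promoter of 6 of 9 of their genes (66.7%, Wilson interval 35.4 to 87.9%), against 29.3% of all genes and 36.7% of genes of like CpG content, the last of which lies within the interval. Their peaks had scores of 1995.57 at Meis1, 954.45 at Pknox2, 517.3 at Pbx3 and 478.87 at Meis2. Of the Polycomb and Trithorax genes, whose products keep Hox genes off or on, 15 of 22 had a peak (68.2%, 47.3 to 83.6%), against 47.0% of genes of like CpG content, just below the interval. The highest scores among them were 773.64 at Phc2, 670.28 at Jarid2 and 605.82 at Eed. Of the genes that induce Hox expression, 4 of 14 had a peak (28.6%, 11.7 to 54.7%), against 29.3% of all genes and 52.1% of genes of like CpG content. Both shares lie within that interval, which also overlaps the interval of the Hox genes. Those with a peak included the retinoic acid receptor genes Rarb (329.51) and Rxra (276.21) and the hindbrain factor gene Egr2 (205.8). Those without included the retinoic acid receptor genes Rara and Rarg and the Cdx genes, activators of trunk Hox genes.

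Other developmental gene families also had few peaks for their CpG content. Of 76 developmental homeobox genes outside the clusters, which also code for homeodomain proteins and include Evx1 and Evx2, 7 had a PHF2 peak (9.21%, Wilson interval 4.53 to 17.8%), against 54.6% for genes of like CpG content. Their median CpG observed/expected was 0.617, close to the 0.591 of the Hox genes. The peaks with the highest scores were at Emx2 (823.6), Otx1 (745.12), Pax6 (709.63) and Gbx2 (560.84). Emx2, Otx1 and Pax6 are used in the forebrain and midbrain, but Otx2, Emx1, Six3, En1 and En2, also used there, had no peak. The clustered protocadherins, adhesion genes that also stand in tandem, had 1 of 57 (1.75%), Pcdhgc3 with a score of 973.44, against 41.7% for genes of like CpG content. The Wilson intervals of the Hox genes (0.454 to 13.2%), the other homeobox genes and the protocadherins (0.310 to 9.29%) overlapped. A low PHF2 share at a given CpG content was therefore not shown to be particular to the Hox genes.

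**Figure D5:**
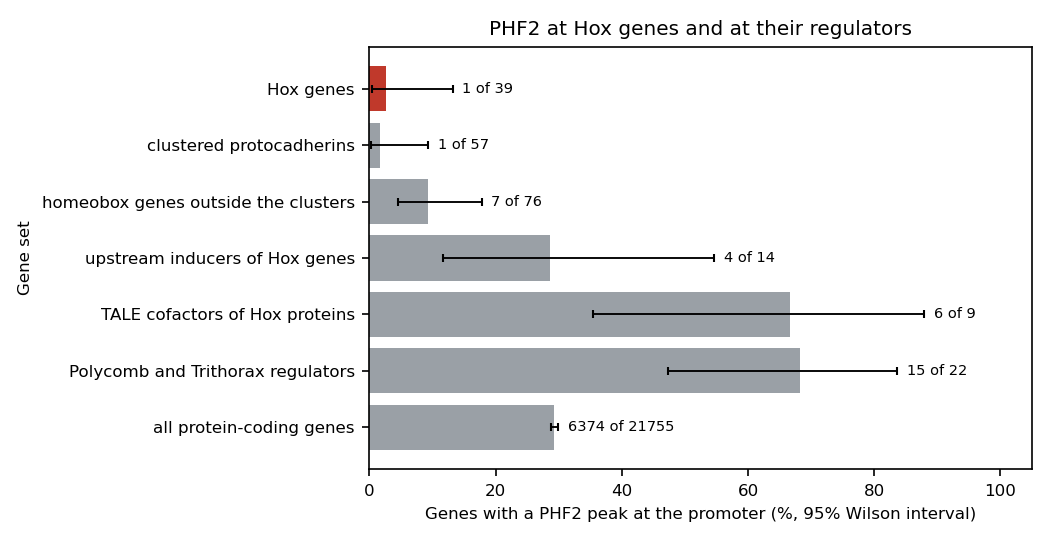
Share of genes with a PHF2 peak at the promoter (%, x axis) for the Hox genes (red), 5 other gene sets and all protein-coding genes (grey, y axis), with 95% Wilson intervals and the counts. The Hox genes (1 of 39), protocadherins (1 of 57) and other homeobox genes (7 of 76) lie below the 29.3% of all genes, and the TALE cofactors (6 of 9) and Polycomb and Trithorax genes (15 of 22) above it.

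Most of 10 genes by which neural stem cells are known carried PHF2 in the same list, but Hes5, Msi1 and Prom1 did not. A peak was at 7 of 10 markers (70.0%, Wilson interval 39.7 to 89.2%), against 48.2% of genes of like CpG content, with scores of 2021.85 at Hes1, 1757.88 at Vim, 1693.52 at Nes and 1625.48 at Sox2. A peak was at 5 of 10 forebrain and midbrain patterning genes (Wilson interval 23.7 to 76.3%), against 55.4% of genes of like CpG content, the highest at Emx2, Otx1, Pax6 and Lhx2 (312.13). Neither share could be told apart from that of genes of like CpG content. A peak of PHF2 says nothing of whether a gene was transcribed, and the Hox genes could not be ordered by transcription here.

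The letters of the promoters shown above were compared with those of all RefSeq promoters of the same length. The table had 24 entries for 22 of the 39 Hox genes, and no PHF2 peak or H3K9me2 region overlapped any of the 24. The median number of CpG was 14.5 in the Hox entries (4 to 45), against 26 in the 6300 entries that a PHF2 peak overlapped and 7 in all 32619. The tetranucleotide CGCG, searched on both strands as were all motifs, was in 15 of 24 Hox entries (62.5%), against 85.4% of PHF2-overlapped entries and 38.3% of all. It occurred 11 times in the Hoxa13 promoter and 7 times in that of Hoxd13, against 4 times each in those of Lnpk and Mtx2. Hoxa13 and Hoxd13, without a peak, thus held more CpG and more CGCG than Lnpk and Mtx2, with one. No other Hox entry held CGCG more than 4 times. As a set, the Hox entries had a lower median number of CpG than the PHF2-overlapped entries, and a smaller share of them held CGCG. Of Hoxb only Hoxb1, Hoxb4 and Hoxb8 had an entry, and of Hoxc only Hoxc4. The values thus describe mostly Hoxa and Hoxd.

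Motifs of factors that bind near starts were counted in the same way. The core of ETS sites, CCGGAA, was in 2 of 24 Hox entries (8.33%), against 31.7% of PHF2-overlapped and 15.0% of all entries. It stood 1 time each in entries of Hoxd12 and Hoxa10, against 2 times in the Mtx2 promoter and 0 times in that of Lnpk. The CCAAT box was in 15 of 24 Hox entries (62.5%), against 36.6% of PHF2-overlapped and 37.6% of all. The TATA box TATAAA was in 4 of 24 (16.7%), against 5.43% and 13.7%. The CREB motif TGACG was in 7 of 24 (29.2%), against 35.8% and 20.9%. The E2F core GCGCGAA, which contains CGCG, was in 0 of 24, against 3.98% and 1.60%. With 24 entries of linked genes, mostly of Hoxa and Hoxd, these shares are descriptions, and a match of letters is no evidence of binding.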

How the data were processed

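PHF2 and H3K9me2 were each mapped in 1 ChIP sample of neural stem cells. The submitters' processing notes name Bowtie2 and the mm10 genome, and per the file headers the PHF2 list was made by MACS, run in Galaxy. The PHF2 list carries 1 score per peak as deposited by the authors, with no stated scale. No source used here names the caller of the H3K9me2 regions, and their deposited score column holds 0 throughout. Depth is unknown, and there were no replicates, so no test was made.

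Starts were taken from GENCODE M21. Peaks were intersected with windows of 1000 bp around starts, clusters with flanks of 100 kb, and CpG-rich stretches (windows of 200 bp, steps of 50 bp, at least 500 bp long), counting an overlap of 1 bp. CpG, GC content and repeat masking came from the RefSeq GRCm38.p6 genome, whose chromosomes are those of mm10, and promoter sequences from the RefSeq table. Intervals are 95% Wilson intervals and cover counting error only. Python 3.11.15, numpy 2.4.6 and scipy 1.17.1 were used, and the counting was tested on simulated data.

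The members and lists were chosen with earlier results of these data known, and the CpG-rich stretches, runs and motifs after values had been seen. Named genes were Hox genes with a peak or region, those highest and lowest in CpG or at the ends of a cluster or nearest to or farthest from a peak, neighbours with a peak, Evx1 and Evx2, and in each list the 4 genes with the highest-scoring peaks. Some genes and values that this rule selects are not reported here. Others were named after their values were seen: the Hox genes and transcripts near H3K9me2 regions, the ends of runs, the lncRNAs, the Cdx genes and other list members without a peak, and the genes whose promoters are printed. Clustered protocadherins were all Pcdha, Pcdhb and Pcdhg genes, including the a, b and c members of Pcdhg.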

Additional observations from a re-analysis of the deposited data

How the results depend on the processing

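No paired analysis was possible because each group has 1 sample. The count of 1 Hox gene with a PHF2 peak was the same with windows of 500 bp, 2 kb and 5 kb, with the 5′-most start, with coding transcripts alone and with peak centres. With only the peaks that scored above the median it was 0, as were the peaks in clusters and flanks (3 with all peaks) and the flanking promoters and lncRNAs with a peak (4 with all peaks). The share of all genes with a PHF2 peak is not given for these settings. Whether the contrast with it held under them was therefore not shown. Peaks in clusters and flanks numbered 1 with flanks of 50 kb. H3K9me2 regions numbered 16, against 27 with flanks of 200 kb and 4 among regions longer than the minimum, and Hox genes with a region numbered 3 with windows of 2 kb and 6 with 5 kb. The share of 51.6% for genes of like CpG content was 35.4% when genes were classed by GC content, 38.6% with the 5′-most start alone and, as chosen after seeing the data, 47.3% with coding transcripts. Also chosen after seeing the data, an observed/expected minimum of 0.75 left 0 CpG-rich stretches of the clusters with a peak. The share outside, 39.9%, was then 48.0%, and it was 14.8% with stretches from 200 bp and 59.3% with those from 1000 bp. The PHF2 share of the Hox genes, 2.56%, lay below each of the shares given for genes of like CpG content. The other 34 values changed by less than 1.5 times or less than their interval. The cause of the changes was not tested. Without read totals, a weak PHF2 signal under the calling threshold could not be told from its absence.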
